A study of Schizosaccharomyces pombe with 2 samples.

Results

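Noncoding RNAs that lie antisense to protein-coding genes of the fission yeast Schizosaccharomyces pombe were collected from the genome annotation deposited with the series. A member was a noncoding RNA with an SPNCRNA identifier on chromosome 1, 2, or 3 whose span shared at least 1 bp with the coding span of a gene on the opposite strand. The coding span runs from the first base of the start codon to the last base of the stop codon, introns included. Of 1571 such noncoding RNAs, 755 (48.1%) met this rule, and 802 touched no coding span on either strand. The remaining 14 overlapped a coding span of their own strand only, as did 10 of the members in addition to the opposite one.

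The series holds 2 ChIP-seq libraries, replicates 1 and 2 of 1 group, that profile dimethylation of histone H3 at lysine 9 (H3K9me2) in a strain labelled Swi6D. This is a strain in which the gene of the HP1 protein Swi6 was deleted, grown in YES medium, and the label names no other allele or agent. The processed file is an annotation with 33839 lines and no score in any of them, so it holds no read, coverage, or expression value of either library, and the depth of the libraries is unknown. All values below are therefore positions and counts of annotated features, and nothing was compared between samples.

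Antisense RNAs are transcribed from the strand opposite to a gene and can pair with its mRNA over the shared stretch. In fission yeast the exosome, a nuclease complex, keeps many noncoding RNAs at low levels, and RNA pairs can be cut by the Dicer enzyme Dcr1 into the small RNAs that guide RNA interference (RNAi) at the centromeric repeats. Heterochromatin at these repeats carries H3K9me2, which the methyltransferase Clr4 deposits and which Swi6 binds.

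Where an antisense RNA crosses the ends of a coding span, it contains the reverse complement of the stop codon, of the start codon, or of both, and it meets the stop codon first. The sequences below show these crossings for the members over genes of heterochromatin and RNA processing, 5′ to 3′ on the strand of the RNA, taken from the RefSeq sequence of build ASM294v3. Capitals mark the reverse complement of a codon, CAT for the start codon and TTA or CTA for the stop codon. The RNAs over clr3+, arb1+, and pab2+ contained both, those over mit1+, cid14+, and rik1+ the start codon only, and SPNCRNA.1196 over epe1+ the stop codon only.
SPNCRNA.1331 over the clr3 stop codon, chr2:256853-256915, minus strand: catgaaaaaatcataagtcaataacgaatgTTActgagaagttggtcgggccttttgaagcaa
SPNCRNA.1331 over the clr3 start codon, chr2:254792-254854, minus strand: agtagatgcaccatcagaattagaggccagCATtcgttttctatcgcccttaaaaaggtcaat
SPNCRNA.771 over the arb1 stop codon, chr1:1901399-1901461, minus strand: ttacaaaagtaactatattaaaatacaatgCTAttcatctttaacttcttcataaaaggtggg
SPNCRNA.771 over the arb1 start codon, chr1:1900022-1900084, minus strand: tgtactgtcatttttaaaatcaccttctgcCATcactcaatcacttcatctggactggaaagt
SPNCRNA.1478 over the pab2 stop codon, chr2:1940064-1940126, plus strand: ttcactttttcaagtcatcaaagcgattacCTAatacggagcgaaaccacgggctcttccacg
SPNCRNA.1478 over the pab2 start codon, chr2:1940724-1940786, plus strand: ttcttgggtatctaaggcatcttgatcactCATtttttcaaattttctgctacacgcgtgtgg
SPNCRNA.1401 over the mit1 start codon, chr2:982042-982100, minus strand: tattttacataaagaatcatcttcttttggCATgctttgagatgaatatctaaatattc
SPNCRNA.638 over the cid14 start codon, chr1:321894-321956, minus strand: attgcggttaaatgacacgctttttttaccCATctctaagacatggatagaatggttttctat
SPNCRNA.1200 over the rik1 start codon, chr3:1468144-1468206, minus strand: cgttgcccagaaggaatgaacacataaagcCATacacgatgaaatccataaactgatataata
SPNCRNA.1196 over the epe1 stop codon, chr3:1431669-1431731, plus strand: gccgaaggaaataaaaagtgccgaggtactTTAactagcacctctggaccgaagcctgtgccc

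The smallest overlaps of an RNA with a coding span show how little shared sequence the rule requires. Capitals mark the bases shared by the RNA and the coding span. The printed stretches run past the end of the RNA. The bases before the capitals lie outside SPNCRNA.860 and SPNCRNA.1207, and those after the capitals lie outside SPNCRNA.903. SPNCRNA.860 began within cao1+, which encodes a copper amine oxidase, and shared its first 4 bp, start codon included. SPNCRNA.903 crossed the stop codon of SPAC8E11.12 and ended with 8 bp shared, and SPNCRNA.1207 shared 12 bp with SPCC162.01c. The membership of SPNCRNA.903 does not rest on these 8 bp, because it also overlapped SPAC8E11.08c, with 162 bases opposite coding spans in all.
SPNCRNA.860 at the cao1 start codon, chr1:2932777-2932820, minus strand: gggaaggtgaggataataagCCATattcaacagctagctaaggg
SPNCRNA.903 at the SPAC8E11.12 stop codon, chr1:3374977-3375024, minus strand: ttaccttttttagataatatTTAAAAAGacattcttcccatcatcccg
SPNCRNA.1207 at the SPCC162.01c start codon, chr3:1587849-1587900, minus strand: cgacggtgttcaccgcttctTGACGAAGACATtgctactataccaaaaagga
The closest RNAs that were not members lay 5 bp (SPNCRNA.630), 11 bp (SPNCRNA.1148, beside the TFIID subunit gene taf5+), and 15 bp (SPNCRNA.1366) from the nearest opposite coding span.

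Antisense RNAs were long compared with the other annotated noncoding RNAs. Their median length was 1420 bp (25th to 75th percentile 975.5 to 2099 bp, range 119 to 5317 bp, n = 755), against 697.5 bp (429 to 1100.75 bp, range 56 to 5123 bp, n = 802) for RNAs outside coding spans. The ratio of the medians was 2.04. Length and membership are not independent, since a longer RNA reaches more coding sequence, so the ratio is a description. Part of it also followed the naming of the RNAs. The 697 members whose product is named antisense RNA had a median of 1468 bp, and the 394 outside RNAs named intergenic RNA one of 932 bp, a ratio of 1.58, whereas the other 408 outside RNAs had a median of 476.5 bp.

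**Figure D1:**
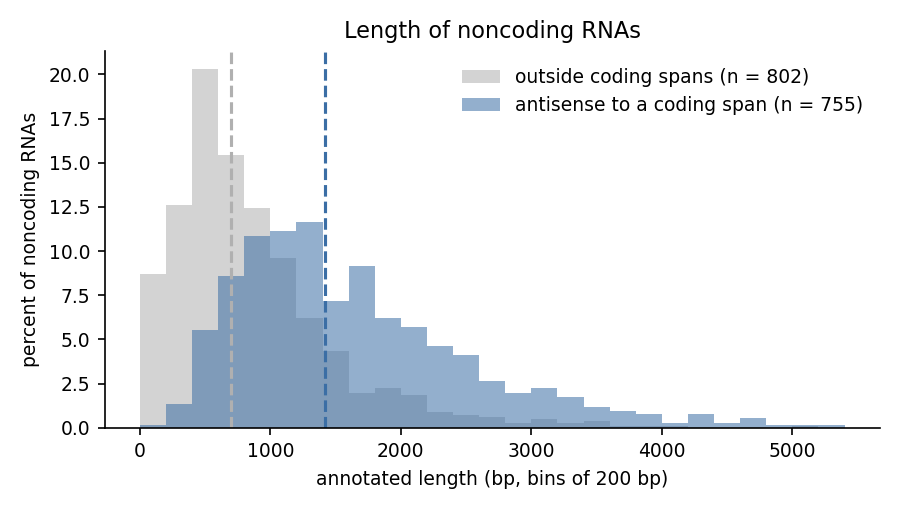
Annotated length in bp (horizontal axis, bins of 200 bp) of noncoding RNAs antisense to a coding span (blue, n = 755) and outside coding spans (grey, n = 802), each as a percent of its own set (vertical axis). Dashed lines mark the medians of 1420 and 697.5 bp, and the blue distribution extends further to the right.

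The longest member was SPNCRNA.1263, at 5317 bp on chromosome 3 (2111204 to 2116520, plus strand), and it covered the whole coding spans of the predicted transporter gene SPCC576.17c and of SPCC576.18c. SPNCRNA.1626 (5113 bp) covered mbx2+, which encodes a MADS-box transcription factor, and the gene SPBP8B7.32, which the annotation calls dubious. SPNCRNA.1206 (4984 bp) lay wholly inside the coding span of the nucleoporin gene nup211+ and covered 90.4% of it, and SPNCRNA.836 (4786 bp) lay wholly inside the myosin gene myp2+ with 75.8% covered. SPNCRNA.1451 (4719 bp) ran through pmt1+, a DNA methyltransferase homolog, and cdc28+, which encodes an RNA helicase of the spliceosome. At the other end, SPNCRNA.88 (119 bp), SPNCRNA.956 (206 bp), and SPNCRNA.1221 (219 bp) shared 80, 78, and 21 bp with SPAC1786.04, SPAC19G12.04, and SPCC191.06, and each reached the start codon only.

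The product names of the annotation matched the overlap for most members but not for all. An antisense RNA was named for 697 members (92.3%), an intergenic RNA for 51 (6.75%), a non-coding RNA for 5, and a poly(A)-bearing RNA for 1. The last member was SPNCRNA.128, the RNA subunit of RNase P, which shared 122 bp with pre10+, a gene of the proteasome core. The 51 RNAs named intergenic had a median of 115 bases opposite coding sequence and at most 378, and 38 of them (74.5%) had fewer than 200, while the median was 1016 bases for those named antisense and 12 (1.72%) had fewer than 200. Conversely, 2 of the 699 RNAs named antisense, SPNCRNA.457 and SPNCRNA.1696, overlapped no opposite coding span.

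The strand of an RNA decides whether it is antisense, and the annotation warns for some RNAs that the strand may be either. This note was attached to 274 of all noncoding RNAs, of which 273 were listed on the plus strand. Among the members it was attached to 1 (0.132%), SPNCRNA.453, which covered the whole of SPCC757.15 on chromosome 3, and among RNAs outside coding spans to 271 (33.8%). The members were split evenly between strands, with 366 on plus and 389 on minus. Outside coding spans the split was 529 and 273, and without the warned RNAs 259 and 272. A second note, that the RNA may be an alternative untranslated region (UTR) of a neighbouring gene, was attached to 106 members (14.0%) and to 104 outside RNAs (13.0%), which are similar shares.

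Most members lay opposite a single gene. Of the 755, 680 overlapped 1 coding gene, 71 overlapped 2, and 4 overlapped 3, which gave 834 pairs of RNA and gene. SPNCRNA.829 (2702 bp) began inside the tryptophan synthase gene trp2+, of which it covered 277 bp, and then covered whole the predicted aminoacyl-tRNA hydrolase gene SPAC19A8.14 and usp101+, which encodes a protein of the U1 snRNP. SPNCRNA.655 likewise began inside SPAC227.19c, with 79 bp shared, and then covered whole the predicted rRNA processing gene SPAC227.02c and the transporter gene SPAC227.03c. SPNCRNA.636 (4062 bp) began inside SPAC18B11.01c, crossed the predicted tRNA modification gene SPAC18B11.02c whole and ended within SPAC18B11.03c, of which it covered 97.7%. In each of these cases the genes pointed the same way, as the rule requires of genes opposite 1 RNA.

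Seen from the genes, 798 of 5155 coding genes (15.5%) had an antisense RNA, and 10.3% of all bases in coding spans (782674 of 7600918) lay opposite one. A single RNA lay opposite 768 of them, 2 RNAs opposite 26, 3 opposite 2, and 4 opposite 2. The genes with 4 were eta2+, which encodes a Myb family protein, and rec7+, which encodes a protein of meiotic recombination. At rec7+ the longest RNA, SPNCRNA.1203 (4422 bp), covered the whole coding span and the entire extents of the other 3, SPNCRNA.69 (96.6% of the coding span), SPNCRNA.131 (46.4%), and SPNCRNA.132 (8.63%). At eta2+, SPNCRNA.872 (2586 bp, whole coding span) likewise contained SPNCRNA.72 (61.2%), SPNCRNA.74 (45.8%), and SPNCRNA.73 (24.7%). The genes with 3 were SPCC162.01c, a predicted subunit of the U4/U6.U5 tri-snRNP covered whole by both SPNCRNA.582 and SPNCRNA.1208, and SPCC1919.05, a predicted Ski3 subunit of the Ski complex, at which SPNCRNA.1273 covered the start side and SPNCRNA.1274 and SPNCRNA.584 the stop side. Such nested entries can describe 1 transcript more than once, so 755 is a count of annotated RNAs and not of separate transcripts. Of the members, 99 overlapped another noncoding RNA on the same strand and 54 one on the opposite strand.

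Antisense RNAs tended to cover either the whole coding span or a stretch of any size. The median share of the coding span covered was 90.0% (25th to 75th percentile 39.0% to 100%, 834 pairs), with 815.5 bp shared in the median and 4 to 4984 bp in the extremes. The whole span was covered in 329 pairs (39.4%), at 325 genes, whereas 54 pairs (6.47%) shared less than 10% of it. In the 505 pairs with partial cover the median share was 46.8%. The genes covered whole had a median coding span of 991 bp and those covered in part one of 1584 bp. The longest coding spans covered from stop to start were those of the predicted oxoprolinase gene SPAC11D3.14c (3783 bp, by SPNCRNA.609), the cohesin gene psm3+ (3628 bp, by SPNCRNA.725), the splicing helicase gene prp22+ (3560 bp, by SPNCRNA.724), smc6+ of the Smc5-6 complex (3529 bp, by SPNCRNA.1150), and the ubiquitin ligase gene rad8+ (3402 bp, by SPNCRNA.617). Of these RNAs, SPNCRNA.725 ran 694 bp past the start codon, and SPNCRNA.617 began 735 bp beyond the stop codon.

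The RNAs covered the start side of genes more often than the stop side. Both codons were covered in 329 pairs (39.4%), the start codon only in 287 (34.4%), the stop codon only in 172 (20.6%), and neither in 46 (5.52%). In the first 1% of the coding span 74.1% of pairs had antisense RNA, and in the last 1% 60.7%. In pairs with partial cover these shares were 57.2% and 35.0%, and the midpoint of the overlap lay nearer the stop codon in 203 of 505 (40.2%). RNAs that reached only the start codon covered a median of 42.4% of the coding span, and those that reached only the stop codon 52.7%. Only 47 members (6.23%) lay wholly inside 1 coding span, nup211+ and myp2+ above among them.

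**Figure D2:**
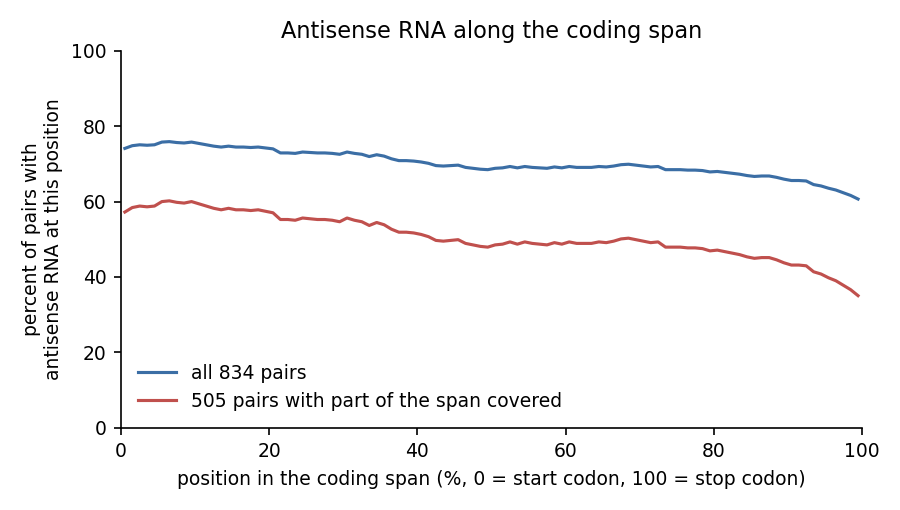
Percent of pairs of RNA and gene with antisense RNA (vertical axis) at each percent of the coding span (horizontal axis, 0 at the start codon and 100 at the stop codon), for all 834 pairs (blue) and for the 505 with partial cover (red). Both lines are highest near the start codon and fall to 60.7% and 35.0% at the stop codon.

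Where the UTRs of the gene are annotated, the ends of the RNAs can be set against the ends of the mRNA. Of 540 pairs with the start codon covered and an annotated 5′ UTR, the RNA ran past the annotated start of the mRNA in 377 (69.8%), by a median of 125 bp over all 540. Of 445 pairs with the stop codon covered and an annotated 3′ UTR, the RNA began beyond the annotated end of the mRNA in 267 (60.0%), by a median of 73 bp over all 445. In the 329 pairs with both codons covered the RNA began a median of 316 bp beyond the stop codon and ended a median of 276 bp past the start codon. These are distances between annotated ends.

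An antisense RNA must begin in some relation to the genes around it. The 5′ end lay inside the opposite coding span for 333 members (44.1%), beside the start of a divergent gene for 301 (39.9%), and behind the stop codon of a gene on its own strand for 120 (15.9%), and 1 began inside a coding span of its own strand. Beside divergent starts the distance to the start codon had a median of 366 bp, with 183 of 301 within 500 bp and 23 within 100 bp. Behind stop codons the median distance was 406 bp. RNAs outside coding spans cannot begin inside one, so their shares are not a like comparison with those of the members. Of these RNAs 608 (75.8%) began beside a divergent start, at a median of 571.5 bp, and 194 behind a stop codon, at a median of 845 bp. The next gene was taken at any distance, up to 42880 bp for the divergent starts. For 271 of the RNAs outside coding spans (33.8%) the annotation warns that the strand may be either, so their 5′ ends and classes are uncertain. The 5′ end lay in an annotated mRNA of the opposite strand for 554 members (73.4%) and of the same strand for 54 (7.15%). At the 3′ end, 281 members stopped before a start codon of their own strand, 252 before the stop codon of an opposite gene, and 219 inside an opposite coding span.

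Genes with antisense RNA less often had a convergent neighbour downstream than genes without, as a description of the annotation. The next gene pointed towards them (convergent) for 297 of 798 genes with an antisense RNA (37.2%), and for 57.4% of the genes without one. For genes whose stop codon was covered the convergent share was 120 of 485 (24.7%), so that most had a tandem neighbour, with its start codon on the side where the antisense RNA began. For the 286 genes with only the start codon covered it was 54.5%, close to the 54.3% of all coding genes. Of the 501 pairs with the stop codon covered, 317 (63.3%) had the 5′ end of the RNA beside the start of a divergent gene. The 5′ ends of RNAs that cover a stop codon lie by construction on the side of this neighbour.

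**Figure D3:**
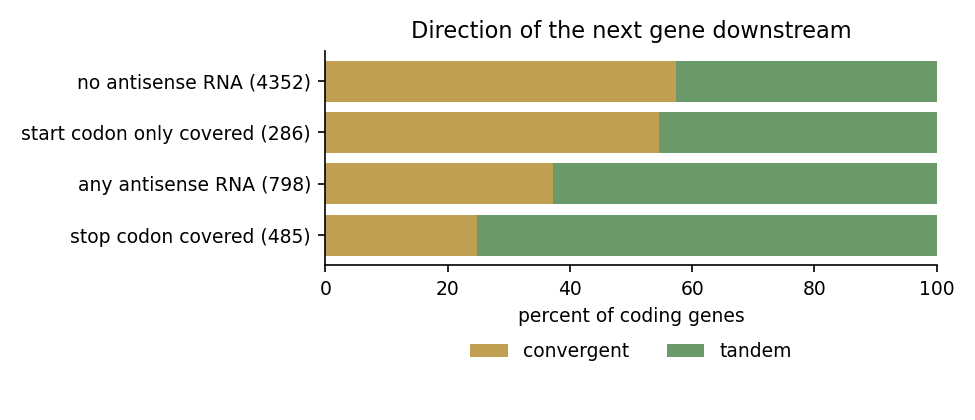
Direction of the next coding gene downstream as a percent of coding genes (horizontal axis), convergent in ochre and tandem in green, for genes without antisense RNA, with only the start codon covered, with any antisense RNA, and with the stop codon covered (number of genes in brackets). The convergent share falls from 57.4% at the top to 24.7% at the bottom.

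Longer genes had an antisense RNA more often, and were covered whole less often. Length and overlap are not independent, since a longer span is easier to touch and harder to cover whole. Both trends are therefore a description. Of genes with coding spans up to 500 bp, 12.9% had one and 9.71% were covered whole, and of genes above 3000 bp 19.3% had one and 2.23% were covered whole. The median coding span was 1297.5 bp for genes with and 1200 bp for genes without an antisense RNA. An intron was present in 362 of the 834 pairs, and in 283 of them the RNA ran opposite at least 1 whole intron. Genes with an intron were 43.5% of those with an antisense RNA, 47.1% of those without, and 46.6% of all coding genes, which are similar shares.

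Genes with meiotic names had an antisense RNA more often than coding genes as a whole, of which 15.5% did. Of 178 genes named mug, meu, mei, mcp, rec, spo, or mde, 45 (25.3%, 95% Wilson interval 19.5% to 32.1%) had an antisense RNA, and the coding span was covered whole at 30 of them. The interval reflects the size of the list only. Genes covered whole were 16.9% of the list and 6.30% of all coding genes. The list was drawn by name, and those with an antisense RNA include mcp60+, which encodes a mitochondrial heat shock protein. The list overlaps with 171 genes that carry the curated term for expression during meiosis, of which 45 (26.3%) had one. The median coding span of the list was 1086 bp, below the 1218 bp of all coding genes. Within genes of 1000 to 2000 bp, 22 of 67 meiotic genes (32.8%) and 15.6% of all genes had an antisense RNA, and in genes of up to 500 bp the values were 4 of 26 (15.4%) and 12.9%.

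The meiotic genes with whole cover included rec12+ and rec7+ of meiotic recombination, beside genes of other or unknown function. SPNCRNA.760 (1732 bp, minus strand) covered rec12+, which encodes the endonuclease that makes the DNA breaks of meiotic recombination, with its 4 introns, from 29 bp beyond the stop codon to 424 bp past the start codon. SPNCRNA.1203 covered rec7+ as given above. SPNCRNA.833 (2159 bp) covered both mug66+ and its tandem neighbour mug105+, a predicted protease gene. SPNCRNA.928 (2612 bp) covered mde6+, which encodes a predicted Muskelin homolog and has 5 introns, while the short SPNCRNA.18 covered 19.6% of the same gene at its stop side. Whole cover was also annotated at mug177+ (SPNCRNA.642), meu31+ (SPNCRNA.710), mug74+ (SPNCRNA.885), mde1+ (SPNCRNA.914), mug182+ (SPNCRNA.926), and mug67+ (SPNCRNA.1022). Apart from rec7+, the genes with whole cover named here lie on chromosome 1, because ties were ordered by chromosome and position. The others of the 30 genes covered whole are not named. By contrast, spo3+ (SPNCRNA.790, 32.3%) and rec11+, which encodes a cohesin subunit of meiosis (SPNCRNA.1180, 36.6%), were crossed in the middle with neither codon covered.

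Genes of cytosolic ribosomal proteins had an antisense RNA less often, at 11 of 140 (7.86%, 95% Wilson interval 4.44% to 13.5%), although 9 of the 11 were covered whole. These genes are short, with a median coding span of 531 bp. Those covered whole were 6.43% of the list, near the 6.30% of all coding genes. The 9 were rps2601+, rps1101+, rps1102+, rps1601+, rps20+, rpl1002+, rpl1801+, rpl902+, and rpl2702+, and the RNAs over rpl2001+ (57.3%) and rpl102+ (83.6%) reached the start codon only. Genes whose deletion is annotated as viable had an antisense RNA in 592 of 3590 cases (16.5%), and those annotated as inviable in 159 of 1259 (12.6%). Of 32 pseudogenes 7 (21.9%) had one. The curated term for a detected antisense transcript was attached to 47 genes, and 46 of them had a member, the exception being the Aurora kinase gene ark1+. This term leaves 752 of the 798 genes with a member without mention.

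**Figure D4:**
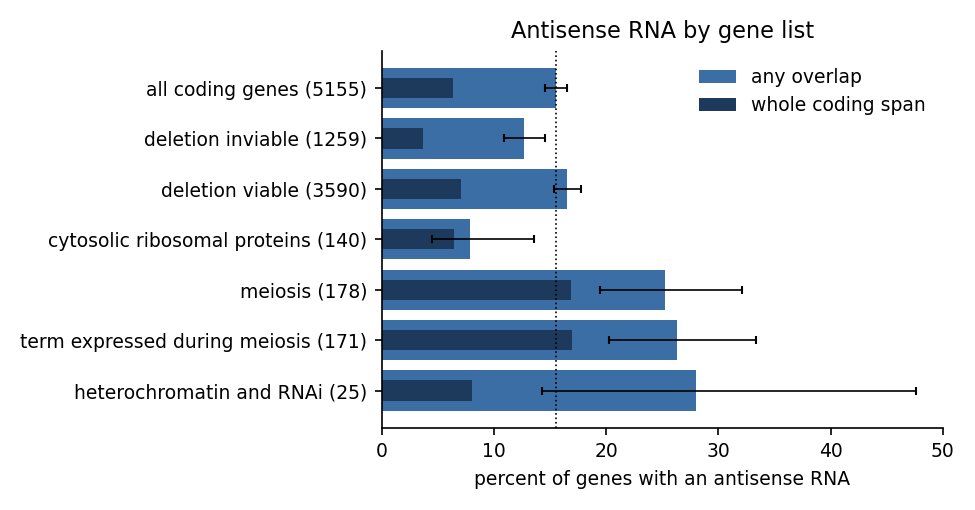
Percent of genes with an antisense RNA (horizontal axis) in each gene list, with the number of genes in brackets. Light bars count any overlap and dark bars whole coding spans, lines are 95% Wilson intervals of the light bars, and the dotted line marks the 15.5% of all coding genes, above which the meiosis lists lie with their whole intervals.

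Among 25 genes of heterochromatin and RNAi, 7 (28.0%, 95% Wilson interval 14.3% to 47.6%) had an antisense RNA, 2 of them over the whole coding span. The interval includes the 15.5% of all coding genes. Those covered whole were 8% of the list and 6.30% of all coding genes. SPNCRNA.1331 (2522 bp, chromosome 2, 254617 to 257138, minus strand) covered clr3+, the histone deacetylase of the silencing complex SHREC, from 253 bp beyond the stop codon to 205 bp past the start codon. SPNCRNA.771 (2175 bp, chromosome 1, 1899821 to 1901995, minus strand) covered arb1+, which encodes a partner of the Argonaute protein, together with its 4 introns. SPNCRNA.1401 (1532 bp) covered the first 35.4% of mit1+, the chromatin remodeller of SHREC, and ended 26 bp past the start codon. In each of these genes the RNA lay over the start codon.

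The genes rik1+, cid14+, and epe1+ also had partial overlaps. SPNCRNA.1200 (843 bp) shared 35 bp (1.12%) with rik1+, which encodes a subunit of the Clr4 methyltransferase complex, and it is the member of this list that was lost when 200 bp of overlap were required, which left 6 of 25. SPNCRNA.638 (783 bp) covered 31.9% of cid14+, a poly(A) polymerase that marks RNAs for the exosome. The gene epe1+, whose JmjC-domain protein counteracts heterochromatin, had 2 members on the stop side, SPNCRNA.1196 (1934 bp, 48.1% of the coding span, from 564 bp beyond the stop codon) and within it SPNCRNA.67 (623 bp, 21.9%). No member overlapped swi6+ itself, which is deleted in the strain, nor clr4+, chp1+, chp2+, tas3+, ago1+, dcr1+, or rdp1+.

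Of 7 genes of the elimination of meiotic RNAs, pab2+, which encodes a nuclear poly(A)-binding protein, was the 1 with a member. This share of 14.3% (95% Wilson interval 2.57% to 51.3%) was near the 15.5% of all coding genes. SPNCRNA.1478 (1387 bp, chromosome 2, 1940059 to 1941445, plus strand) covered all 663 bp of its coding span with 3 introns and ran 689 bp past the start codon. There was none over mmi1+, red1+, rrp6+, dis3+, pla1+, or mei2+.

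**Figure D5:**
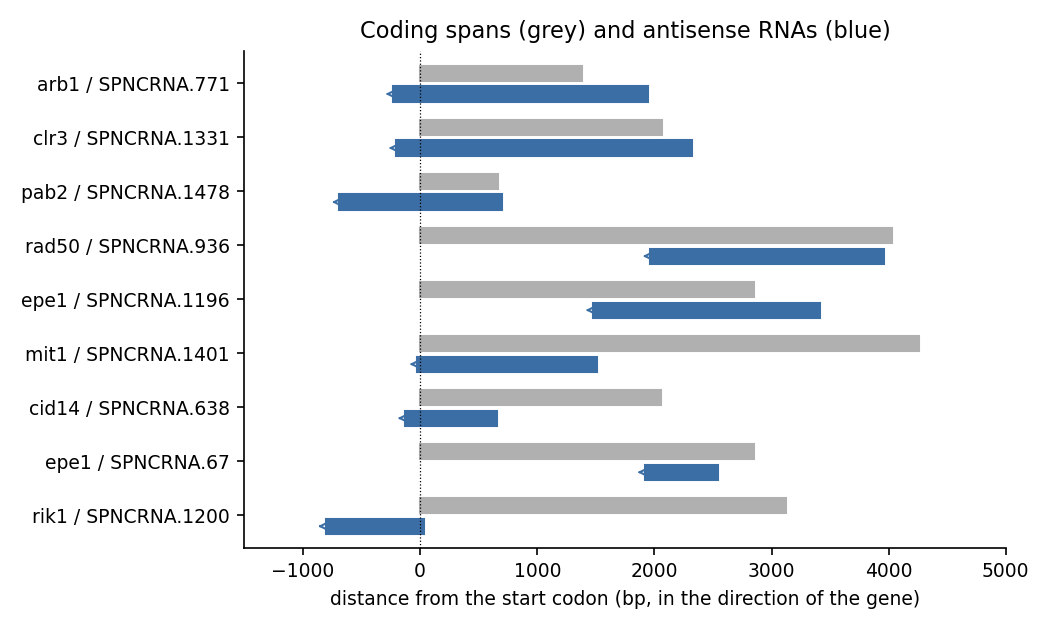
Coding spans of genes of heterochromatin, the centromere 1 boundary, and RNA elimination (grey) with the antisense RNAs opposite them (blue, arrow in the direction of the RNA), by distance from the start codon in bp (horizontal axis). The top 3 genes are covered whole, the RNAs over rad50+ and epe1+ lie on the stop side, and those over mit1+, cid14+, and rik1+ on the start side.

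No antisense RNA lay in the centromeric repeats, where 26 noncoding RNAs were annotated. By the rule an RNA there could be a member only opposite a coding span. The number of coding spans inside the repeats is not given here, so the absence is a description. Within 10 kb of the repeats 3 members were found. The closest was SPNCRNA.936 (1995 bp, chromosome 1, 3791897 to 3793891, plus strand), 2476 bp from the repeats of centromere 1. It lay inside the coding span of rad50+, which encodes a subunit of a DNA break repair complex, began 66 bp before the end of the span, and covered 49.6% of it. On the other side of centromere 1, SPNCRNA.933 covered the whole coding span of rpl1002+, a gene of ribosomal protein L10, at 8038 bp, and beside centromere 3 SPNCRNA.1173 covered 95.8% of SPCC4B3.18 at 6128 bp. No member overlapped per1+ or emc5+, the other genes listed for the boundary of centromere 1. The 3 genes were 15.8% of the 19 coding genes within this distance, which is near the 15.5% of all coding genes.

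Near the ends of chromosomes 1 and 2 antisense RNAs were somewhat rarer. Within 100 kb of these ends lay 14 members (1.85%), 2.68% of all coding genes, and 4.36% of the RNAs outside coding spans. The members nearest to any chromosome end were SPNCRNA.1298 over SPCC569.02c (19310 bp from the end of chromosome 3, where the assembly ends next to the ribosomal DNA), SPNCRNA.61 over SPAC186.07c (32485 bp, chromosome 1), SPNCRNA.1096 over SPCC1884.01 (37657 bp, chromosome 3), SPNCRNA.1100 over SPCC757.03c (47512 bp, chromosome 3), and SPNCRNA.1697 over the galactokinase gene gal1+ (49975 bp, chromosome 2). Across whole chromosomes the members were spread evenly, with 6.24, 5.86, and 5.75 per 100 kb on chromosomes 1, 2, and 3, where 16.1%, 14.8%, and 15.2% of the coding genes had one.

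The sequence of the RNAs was searched for the core of the element by which Mmi1 recognises meiotic mRNAs for elimination, TNAAAC, in which N is any base. It occurred 2394 times on the strand of the 755 RNAs and as often on the other strand, which is 1.93 per kb on each. In the parts opposite coding spans the density was 1.72 per kb on the RNA strand and 1.73 on the other, and in all coding spans 1.70 per kb on the sense strand. In the parts outside coding spans it was 2.32 per kb, at a GC content of 32.5% against 39.1% in the parts opposite coding spans. The density was thus higher where GC content was lower, and nearly the same on both strands.

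The polyadenylation motif AATAAA was searched within 50 bases on each side of the 3′ ends. It was found on the RNA strand at 26.4% of the members and on the other strand at 16.0%. For annotated mRNAs these shares were 25.6% and 22.6%, for RNAs outside coding spans 22.4% and 20.8%, and 11.4% of all 100-base windows of the genome held the motif. For 271 of the RNAs outside coding spans (33.8%) the strand may be either, so their 3′ end is uncertain. Their values are therefore not a like comparison with those of the members. The ends of the antisense RNAs thus carried the motif about as often as those of mRNAs. The excess over the other strand was 10.3 percentage points for the members and 2.90 for mRNAs. This difference lay mainly in the other strand, with 16.0% for the members and 22.6% for mRNAs.

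In the later RefSeq annotation of the same sequence, 727 members (96.3%) had the same strand, first base, and last base, against 666 of the 802 RNAs outside coding spans (83.0%). Of the other members 4 had other ends and 24 were not listed under their identifier. Among the latter was SPNCRNA.1196 over epe1+, and SPNCRNA.67 was listed there with exactly its ends. The inner RNAs SPNCRNA.72, SPNCRNA.73, and SPNCRNA.74 of eta2+ were not listed, and neither was SPNCRNA.860 with its overlap of 4 bp. By the same rule the RefSeq annotation holds 4919 antisense RNAs among 7183 (68.5%), with a median length of 752 bp, over 3670 of 5145 coding genes (71.3%). The 15.5% given above therefore describes the deposited annotation and is not the extent of antisense transcription in fission yeast.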

How the data were processed

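Noncoding RNAs and coding genes were both taken from the genome annotation that the authors deposited for the 2 libraries. Its values are first and last bases counted from 1, a unit of position with no normalization, and it holds no signal. The aligner and the depth of the reads are not given in the sources used here. The members and gene lists were chosen with earlier results of these data known. The lines for coding spans run from the first to the last coding base, not over single exons as had been planned for, and an exon-only overlap was added. Chromosome lengths equalled those of ASM294v3, and 5118 of 5123 coding genes other than pseudogenes (99.9%) began and ended with codons in frame, so sequences were read from it. The overlap, position, and codon functions were tested on simulated features. Genes named are those of the heterochromatin, boundary, RNA elimination, and meiosis lists, the extremes of length, cover, overlap, and number, and the members nearest to centromeres and chromosome ends. A gene that the rule would name is counted but not reported here. The wholly covered ribosomal genes, spo3+, rec11+, mcp60+, SPNCRNA.128, SPNCRNA.453, SPNCRNA.457, SPNCRNA.1696, the pseudogenes, the RNAs that differ from RefSeq, and ark1+ were named after their values were seen. Alternatives were overlaps of 50 and 200 bp, mRNA spans, other distances and windows, and the RefSeq annotation. Tables were made with Python 3.11.15 and numpy 2.4.6, Wilson intervals with scipy 1.17.1, and plots with matplotlib 3.10.9.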

Additional observations from a re-analysis of the deposited data

How the results depend on the processing

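The 755 antisense RNAs became 744 and 702 when 50 or 200 bp of overlap were required, 750 without pseudogenes, 969 with annotated mRNA spans in place of coding spans, and 4919 in the RefSeq annotation. Exon-only overlap, chosen after seeing the data, left 755. Requiring 200 bp gave a median length of 1465.5 bp and a median share of 95.3% of the coding span. Over exonic bases the share was 90.3%. The length ratio of 2.04 was 1.82 without RNAs noted as of either strand and 1.58 for the product names antisense and intergenic, both chosen after seeing the data. With partial overlaps centred in the middle of the gene left out, 35.9% lay at the stop side. Within 20 kb of the centromeric repeats lay 6 members in place of 3, which were 0.795% of the members beside 0.912% of all coding genes. Within 50 kb of the ends of chromosomes 1 and 2 lay 2 in place of 14, which were 0.265% of the members beside 1.40% of all coding genes. TNAAAC occurred 1.72 times per kb in the parts opposite coding spans, AATAAA lay within 100 bases of 39.9% of the ends, and the convergent share was 24.7% for genes with the stop codon covered, a subset chosen after seeing the data. No paired analysis was possible because the series has 1 group and the annotation holds no value of either replicate. The values limit what can be said to annotated positions, since neither abundance nor H3K9me2 was measured here.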

Other observations

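The records behind the antisense RNAs were uniform. The same publication stood first among the references of 698 of the 755 members (92.5%), and of 395 of the 802 RNAs outside coding spans.

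The pseudogenes with an antisense RNA numbered 7, too few to call their cover a trait of pseudogenes. Of all 798 coding genes with an antisense RNA, 325 were covered whole. At 5 of the 7 the whole span was covered, by SPNCRNA.864, SPNCRNA.979, SPNCRNA.1153, SPNCRNA.1224, and SPNCRNA.1485, and at SPBPB21E7.08 (SPNCRNA.1305) 94.1% and at SPCC663.07c (SPNCRNA.1213) 49.5% of it.

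The densest group of TNAAAC motifs, 5 within 120 bases, lay in SPNCRNA.1134 (1286 bp, chromosome 3, 361092 to 362377, minus strand) in its part outside the coding span of SPCC594.03. This RNA held 8 of the motifs on its own strand and 2 on the other, and it carries the note on an alternative UTR. It was picked for this density, and no test was made.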
